A study of Rattus norvegicus with 24 samples.

Results

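The heat shock proteins and folding chaperones of rat heart are described here across the right and left ventricles of animals given monocrotaline and of controls. Members were chosen by gene symbol alone: the Hsp, Dnaj, Cct, Pdia and Ppi families, and Calr, Canx, Hyou1, Cryab, Ddit3 and Xbp1. The array held 34 such probes for 33 genes, of 4126 named genes, and 31 genes had values on 2 or more arrays of each right ventricle group. Calr and Hspbap1 had 0 values in the failing right ventricle and were left out of the comparisons. No Cct probe and no Xbp1 probe was on the array.

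The study hybridised each ventricle RNA sample against a common reference pool on a 2-colour array. All samples carry the day 14 label, and the title names monocrotaline, a plant toxin used in rats to narrow the pulmonary arteries, which puts a pressure load on the right side of the heart. The groups are CHF (6 right ventricle and 2 left ventricle arrays), HYP (6 and 2) and CON (6 and 2), read here from the title as decompensated hypertrophy with heart failure, compensated hypertrophy and control. The labels spell out none of the 3 abbreviations, give no strain, sex, age or dose and do not say what the controls received, nor that each sample is a separate animal. The p-values therefore speak only of the spread among these samples, part of which may be technical. In whole ventricle RNA, fewer cells of a type and less RNA per cell cannot be told apart.

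Chaperones hold unfolded or damaged proteins and help them reach or regain their shape. The HSP70 and HSP90 machines work by cycles of ATP use in the cytosol, mitochondria and endoplasmic reticulum (ER). J-domain proteins and nucleotide exchange factors drive the HSP70 cycle, while small heat shock proteins bind unfolding proteins without using ATP. In heart muscle the small heat shock proteins are abundant and guard desmin, titin and the contractile filaments. Heat shock factor induces many cytosolic and mitochondrial chaperones, and the unfolded protein response induces those of the ER.

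Values are scores centred on the median of their array, in units close to 1 array SD, and read as sample over reference pool. They show a position relative to the pool, give no absolute level and cannot show whether a marker of the tissue is present. A difference between groups is a difference of such scores and not a log2 fold change. An array held 2162 to 3658 values of 4803 probes, and the number of arrays limits the precision. The lowest correlation between 2 arrays was -0.530, and no source used here gives the dyes, so whether every score runs in the same direction is unsettled. Each comparison was therefore repeated with the sign turned on 5 arrays (CHF right ventricle 10 and 14, CHF left ventricle 09, and CON left ventricle 21 and 22). CHF right ventricle arrays 10 and 14 also stood farthest from the others on the first component of the right ventricle arrays.

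No member passed the threshold of an adjusted p below 0.05 in a comparison of conditions within the right ventricle. In CHF against CON, 0 of 31 members passed, where 0.907% of all 3199 features did (limma, Benjamini-Hochberg over all features). In HYP against CON, 0 of 31 passed, against 0.281% of all features. In CHF against HYP, 0 of 31 passed, and the share over all features was 0%. At an unadjusted p below 0.05, 2 members (Hspa9 and Pdia4) were below it in CHF against CON, where 8.5% of all features were. In HYP against CON that count was 1 (Hspa9), where the share over all features was 4.1%. For CHF against HYP it was 0, where the share was 4.94%. The groups of no member stood fully apart in any of the 3 comparisons, while 3.22% of all features did so for CHF and CON, 1.91% for HYP and CON, and 2.56% for CHF and HYP.

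The members as a set stayed near the middle of the array. Their median difference was -0.07 in CHF against CON, where it was -0.10 over all features. It was 0.04 in HYP against CON, where it was -0.05 over all features, and -0.04 in CHF against HYP, where it was -0.04 over all features. The comparisons of CHF and HYP share their 6 CON arrays, so the values of each stand side by side and are not independent. Of 31 members, 13 had a positive difference in CHF against CON (41.2% of all features did), 17 for HYP and CON (43.8%), and 14 for CHF and HYP (45.5%). With the sign of CHF arrays 10 and 14 turned, the median was -0.22 for CHF and CON and -0.25 for CHF and HYP, and 13 of the 31 members had the opposite sign in CHF against CON.

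**Figure D1:**
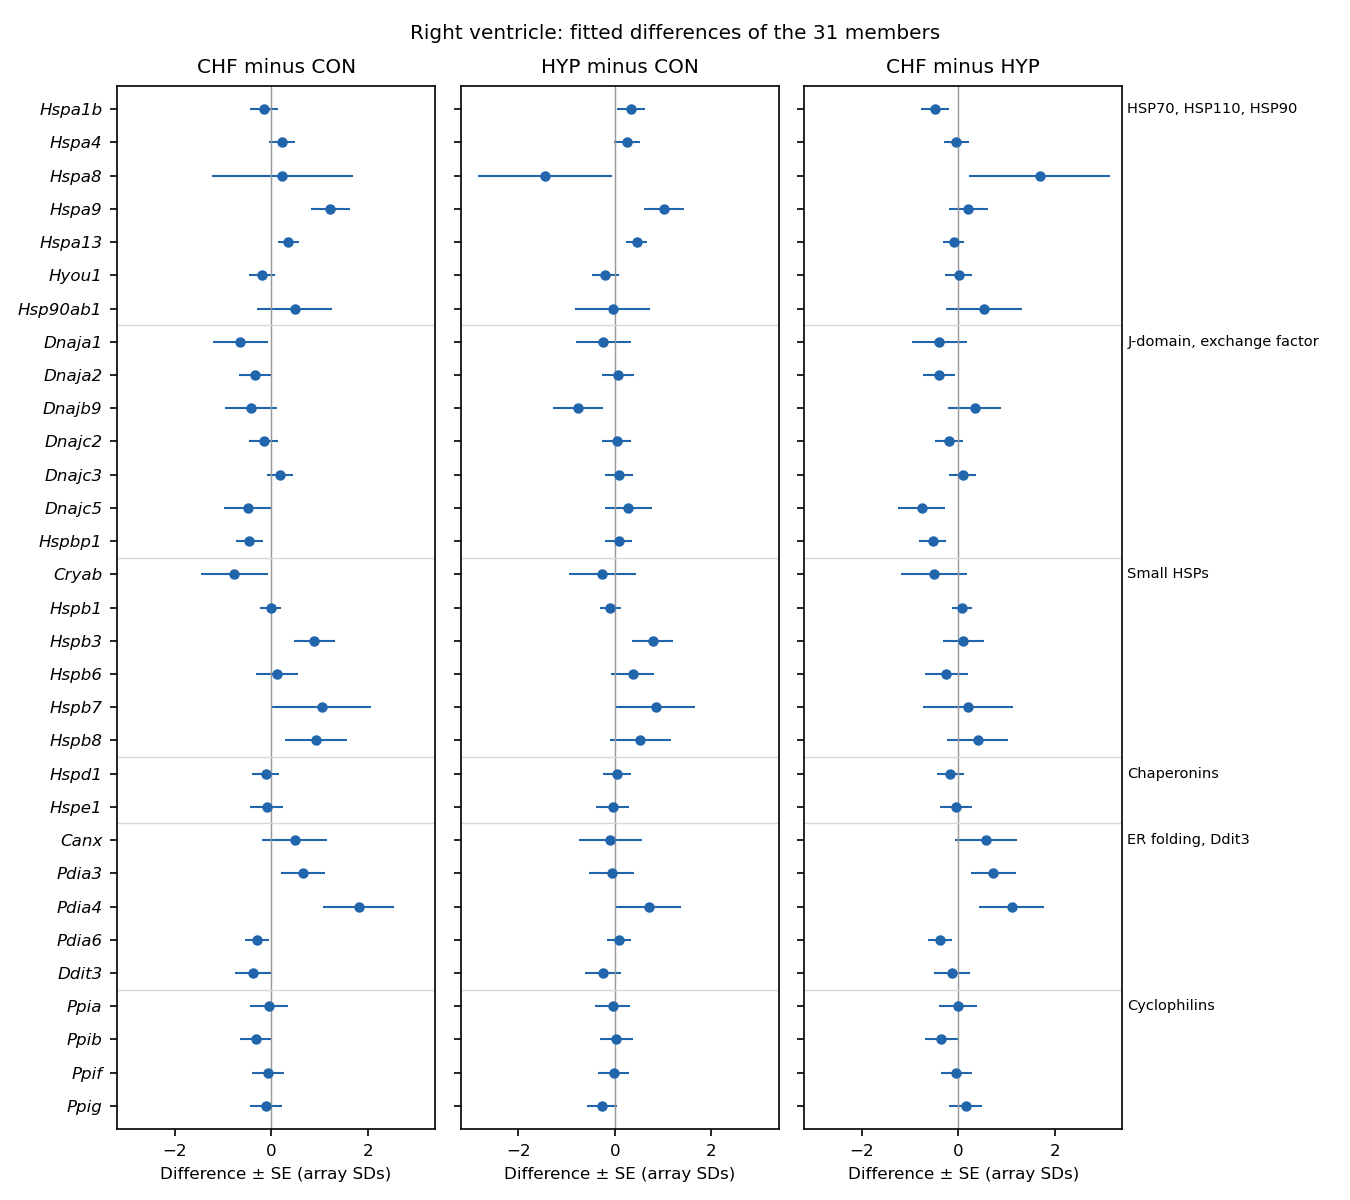
Fitted difference of each of the 31 members between right ventricle groups, in array SDs, with the standard error as a bar, in rows grouped by role. Hspa9 lies to the right of 0 against CON in both CHF (1.22) and HYP (1.02), Pdia4 lies farthest right in CHF (1.81), and none passed the threshold; with the sign of CHF arrays 10 and 14 turned, Hspa9 and Pdia4 in CHF were at -0.27 and 0.27.

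Among the ATP-driven chaperones, Hspa9 had the smallest p in both comparisons with CON. Hspa9 is mortalin, the HSP70 of the mitochondrial matrix, which pulls imported proteins through the inner membrane and helps to fold them. Its scores were 0.175, 0.939 and 2.62 in CHF (lowest, median and highest of 6 right ventricle arrays), 0.321, 0.785 and 1.87 in HYP, and -0.721, -0.03 and 0.445 in CON. All 6 CHF and all 6 HYP arrays were above 0 and 3 of 6 CON arrays were below it, but the lowest CHF and HYP arrays lay under the highest CON array. The difference was 1.22 ± 0.41 (SE) in CHF against CON, with an unadjusted p of 0.00751 and an adjusted p of 0.286 by limma, and the adjusted p ran from 0.127 to 0.832 over the alternatives. In HYP against CON it was 1.02 ± 0.41, with an unadjusted p of 0.0219 and an adjusted p of 0.9997. The CHF value rested partly on arrays 10 and 14, which held the 2 highest scores: without them it was 0.668, and with their sign turned it was -0.271. The HYP value uses no array whose sign was turned.

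**Figure D2:**
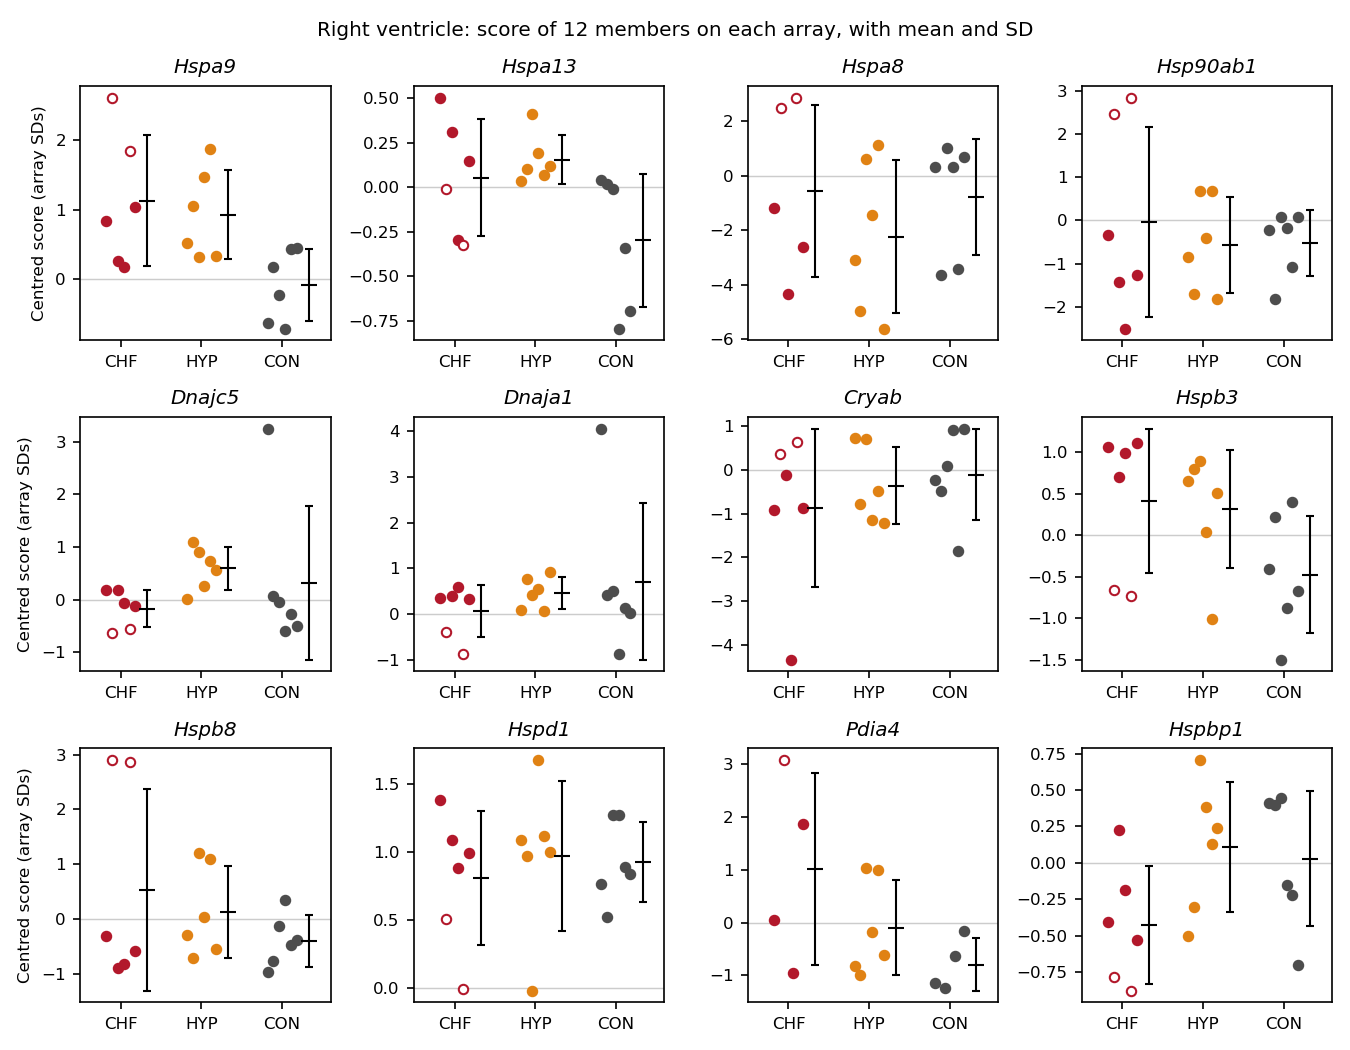
Centred score of 12 members on each right ventricle array, in array SDs, for CHF, HYP and CON, with the mean and SD beside the points; open circles are CHF arrays 10 and 14. The open circles are the highest CHF points of Hspa9, Hspa8, Hsp90ab1, Hspb8 and Cryab and the lowest of Hspb3, Dnajc5, Dnaja1, Hspd1 and Hspbp1.

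Hspa13, an HSP70-like ATPase of the microsomes, had scores of -0.327, 0.069 and 0.503 in CHF, 0.032, 0.112 and 0.412 in HYP, and -0.795, -0.177 and 0.039 in CON (lowest, median and highest). All 6 HYP arrays were above 0, and the highest CON array overlapped the lowest HYP array by a small margin. The difference was 0.35 ± 0.22 in CHF against CON (adjusted p of 0.692 by limma) and 0.45 ± 0.22 in HYP against CON (adjusted p of 0.9997).

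Hspa8, the constitutive cytosolic HSP70, and Hsp90ab1, the constitutive cytosolic HSP90, had wide spreads. Hspa8 had scores of -4.33, -1.17 and 2.87 in CHF (5 arrays), -5.62, -2.28 and 1.13 in HYP, and -3.64, 0.318 and 1.01 in CON. Hsp90ab1 had -2.51, -0.81 and 2.84 in CHF, -1.82, -0.621 and 0.684 in HYP, and -1.82, -0.194 and 0.086 in CON. The groups overlapped widely for both genes. In CHF against CON, Hspa8 differed by 0.23 ± 1.46 and Hsp90ab1 by 0.48 ± 0.78 (adjusted p of 0.981 and 0.891 by limma), and both were negative with the sign turned (-1.91 and -1.29) and without CHF arrays 10 and 14 (-1.92 and -0.86). In HYP against CON, Hspa8 differed by -1.45 ± 1.39 and by -3.28 with array weights, and Hsp90ab1 by -0.05 ± 0.78 (adjusted p of 0.9997 for both by limma). The CHF score of Hspa8 minus its HYP score was 1.68 ± 1.46, and -0.45 with the sign turned. The cDNA of Hspa8 has many near-identical copies in the genome, so that its probe may share signal with them.

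Hspa4, an exchange factor of the HSP110 type, differed by 0.22 ± 0.27 in CHF against CON and 0.26 ± 0.27 in HYP against CON. Hspa1b, the stress-induced HSP70, was the one member with more than 1 probe, and it has a near-identical copy, Hspa1a. It differed by -0.14 ± 0.29 in CHF against CON and 0.34 ± 0.29 in HYP against CON, and the CHF score minus the HYP score was -0.48 ± 0.29 (adjusted p of 0.940 by limma). Its 2 probes did not run together: their correlation was -0.06 over the 18 arrays that measured both, so the averaged score rests on discordant probes. Neither Hspa5 nor Hsp90b1, the main ER forms of HSP70 and HSP90, was among the measured members.

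The J-domain proteins, which hand substrates to HSP70 and start its ATP cycle, were 6 (Dnaja1, Dnaja2, Dnajb9, Dnajc2, Dnajc3 and Dnajc5), and 0 passed in any right ventricle comparison. Of the 6, 1 had a positive difference in CHF against CON, with a median of -0.38, and 4 had one in HYP against CON, with a median of 0.05. Dnajc5, a cysteine string protein that guards vesicle fusion, had scores of -0.629, -0.093 and 0.174 in CHF, 0.013, 0.646 and 1.1 in HYP, and -0.598, -0.159 and 3.25 in CON. CHF and HYP arrays overlapped only between 0.013 and 0.174, and the difference of CHF against HYP was -0.76 ± 0.49 (adjusted p of 0.940 by limma). The CON group was spread by array 17, which was at 3.25 for Dnajc5 and 4.06 for Dnaja1. Dnaja1, a cytosolic J-domain protein, had scores of -0.873, 0.345 and 0.599 in CHF, 0.076, 0.477 and 0.912 in HYP, and -0.862, 0.273 and 4.06 in CON. Without CON array 17 the difference of CHF against CON was 0.03 for Dnaja1 and 0.10 for Dnajc5, against -0.64 and -0.48 with it.

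Hspbp1, an exchange factor that loosens the HSP70 cycle, had the smallest p of all members in CHF against HYP. Its scores were -0.879, -0.465 and 0.225 in CHF, 0.184 at the median of HYP (lowest -0.504, highest 0.709), and -0.701, 0.124 and 0.442 in CON. The groups overlapped. The difference was -0.54 ± 0.28 in CHF against HYP (adjusted p of 0.938 by limma) and -0.46 ± 0.28 in CHF against CON (adjusted p of 0.680), and with the sign of CHF arrays 10 and 14 turned these became 0.02 and 0.10.

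The small heat shock proteins were Cryab, Hspb1, Hspb3, Hspb6, Hspb7 and Hspb8, and 0 of 6 passed in the right ventricle. Of the 6, 4 had a positive difference in CHF against CON (median 0.50) and 4 in HYP against CON (median 0.45). The CHF count rested on arrays 10 and 14: with their sign turned it was 2 of 6 (median -0.59), and without them 1 of the 5 still measured (median -0.12). Hspb3, a small heat shock protein of striated muscle, had scores of -0.729, 0.851 and 1.11 in CHF, -1, 0.583 and 0.892 in HYP, and -1.5, -0.54 and 0.4 in CON. Of the 6 CHF arrays, 4 lay above every CON array, and the other 2 were arrays 10 and 14. The difference was 0.89 ± 0.43 in CHF against CON (adjusted p of 0.583 by limma) and 0.79 ± 0.43 in HYP against CON (adjusted p of 0.9997). Without CHF arrays 10 and 14 the first was 1.44, and with their sign turned 1.35, and the adjusted p over the alternatives ran from 0.0792 to 0.859.

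Hspb8, which works with a BAG co-chaperone to clear damaged filament proteins, had scores of -0.888, -0.445 and 2.91 in CHF, -0.72, -0.128 and 1.21 in HYP, and -0.973, -0.432 and 0.347 in CON. CHF arrays 10 and 14 were the 2 highest, and the other 4 CHF arrays lay within the CON range. The difference in CHF against CON was 0.93 ± 0.64 (adjusted p of 0.725 by limma), and it was -0.25 without those arrays and -0.998 with their sign turned. Cryab, alpha-B-crystallin, the abundant small heat shock protein that binds desmin and titin, had scores of -4.33, -0.502 and 0.629 in CHF, -1.21, -0.631 and 0.712 in HYP, and -1.85, -0.085 and 0.932 in CON. CHF array 12 stood far below the others at -4.33, and the difference in CHF against CON was -0.77 ± 0.69 (adjusted p of 0.797 by limma), or -0.08 without that array. CHF arrays 10 and 14 held the 2 highest CHF scores of Cryab, and without them its difference was -1.45. On CHF array 12 the mean score of 10 cardiomyocyte markers, of 11 on the array, was -2.09, the lowest of all right ventricle arrays. Their part in the Cryab score was not tested. Across groups that mean ran from -2.09 to 1.32 in CHF, from -0.763 to 1.003 in HYP and from -0.849 to 1.21 in CON.

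Hspb6, a small heat shock protein that is phosphorylated after beta-adrenergic stimulation, differed by 0.12 ± 0.44 in CHF against CON (-0.19 with the sign turned) and by 0.37 ± 0.44 in HYP against CON. Hspb1, which caps and protects actin, had the narrowest spread of the class, from -0.785 to 0.122 over the 18 right ventricle arrays, and differed by -0.02 ± 0.21 and -0.09 ± 0.21. Hspb7, a small heat shock protein of heart muscle, was measured on 2 CHF, 5 HYP and 3 CON right ventricle arrays, and its difference of 1.04 ± 1.02 in CHF against CON rests on those few. One of the CHF arrays is array 10, and with the sign turned the difference was -1.18.

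The promoters of several members hold letters that resemble the element through which heat shock factor acts. The following stretches are shown because that element is shared by cytosolic and mitochondrial chaperones. Promoter windows of 250 bases before to 50 after the start site, from RefSeq on GRCr8, were matched for 27 of the 33 members on the array. The letters GAANNTTC or TTCNNGAA, which read the same on both strands and may overlap each other, were found in the windows of 8 of these (29.6%): Dnaja1, Hspa8, Hspa9, Hspb1, Hspb6, Hspb8, Hspd1 and Hspe1. Over all 33469 windows of that length the share was 15.9%. Capitals mark these letters in Hspa8 (chr8:50080451-50080479, plus strand), Dnaja1 (chr5:60638215-60638238, plus strand) and Hspb1 (chr12:26432395-26432438, minus strand).
Hspa8: cggaacccTTCTGGAAGGTTCtaagacag
Dnaja1: agcctctaGAAGATTCtacaagga
Hspb1: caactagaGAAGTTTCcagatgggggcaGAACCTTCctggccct
A match is a description of letters and not a tested binding site. None of these 8 genes passed the threshold between conditions in the right ventricle.

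Hspd1 and Hspe1 encode the mitochondrial chaperonin and the lid that closes its folding chamber, and the 2 genes start from one region in opposite directions. Their start sites are 290 bases apart on chromosome 9, and the promoter windows overlap over 211 bases (chr9:64084077-64084287). The overlap lies from 250 to 40 bases before each start site. It is printed on the plus strand, the strand of Hspe1, because the pair is the clearest case among the members of 2 subunits with shared regulatory sequence; capitals mark GAANNTTC and TTCNNGAA.
Hspe1 and Hspd1 shared region: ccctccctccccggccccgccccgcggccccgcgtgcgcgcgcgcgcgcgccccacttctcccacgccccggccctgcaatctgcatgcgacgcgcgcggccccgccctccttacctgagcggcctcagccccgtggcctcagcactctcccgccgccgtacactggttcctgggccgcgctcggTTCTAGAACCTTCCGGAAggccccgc

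The scores of the chaperonin subunits moved together from array to array, and neither passed between conditions. Hspd1 had scores of -0.006, 0.938 and 1.39 in CHF, -0.019, 1.05 and 1.68 in HYP, and 0.522, 0.864 and 1.27 in CON. Hspe1 had -0.116, 0.925 and 1.75 in CHF, -0.082, 1.23 and 1.35 in HYP, and 0.499, 1.07 and 1.46 in CON. The CON range lay inside the CHF range for both genes, and the differences of CHF against CON were -0.12 ± 0.29 for Hspd1 and -0.10 ± 0.34 for Hspe1 (adjusted p of 0.929 and 0.954 by limma). Without CHF arrays 10 and 14 both differences were positive, between 0.16 and 0.32. Over the 18 right ventricle arrays the deviations of the pair from their group means had a Pearson r of 0.806 and a Spearman rho of 0.639. In a permutation test with 100000 resamples within groups, two-sided, p was 0.00033 for r and 0.00978 for rho. Without the 2 arrays farthest from the median r was 0.620. Within CHF r was 0.932, within HYP 0.788 and within CON 0.524, and the pooled r was 0.847 when CHF arrays 10 and 14 had their sign turned. The pair was chosen for its shared start region with earlier results known, and its p is not adjusted for the 465 member pairs, of which 11 had a higher r. Among them were Dnajc2 with Hspe1 (0.869) and Dnajc2 with Hspd1 (0.808), so moving together was not particular to the chaperonin subunits. Dnajc2, a J-domain protein, is named here after its values were seen. Both genes share the arrays, their depth and the array component described below, which Hspe1 followed at an r of -0.663 and Hspd1 at -0.473. After the component was removed the r of the pair was 0.748. The permutation asks only whether the scores are linked at all. Its p therefore cannot tell a link of this pair from a spread shared by many genes of an array. On the 6 left ventricle arrays the scores themselves had an r of 0.939, given as a description.

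**Figure D3:**
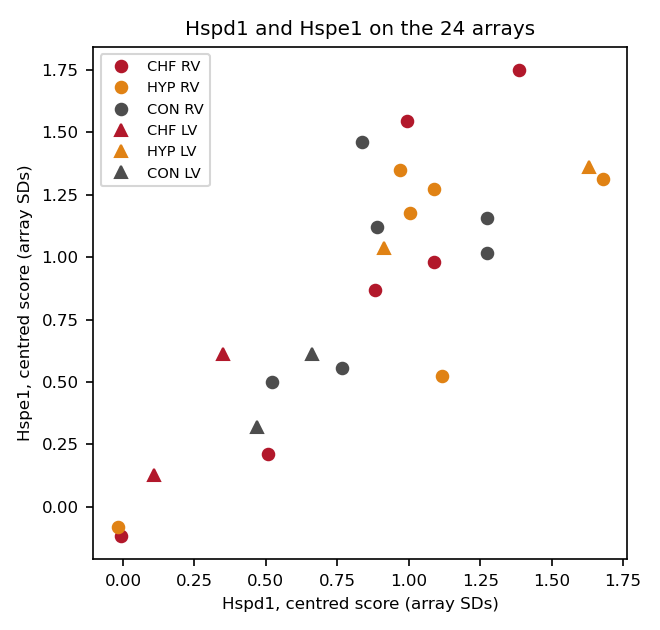
Centred score of Hspe1 against that of Hspd1 on the 24 arrays, in array SDs; circles are right ventricle arrays, triangles left ventricle arrays, and colours the condition. The points follow 1 rising line, with a Pearson r of 0.806 over the right ventricle deviations and no separation of CHF, HYP and CON among the circles. The CHF triangles lie below the HYP triangles for both genes, but there are 2 of each, and groups of 2 often separate by chance.

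Among the folding enzymes of the ER, Pdia4 and Pdia3 had positive differences in CHF against CON without passing the threshold. Pdia4, a disulfide isomerase of the ER, was measured on 4 CHF, 6 HYP and 4 CON right ventricle arrays. Its scores were -0.954, 0.053, 1.87 and 3.09 in CHF, -0.985, -0.396 and 1.04 in HYP (lowest, median and highest), and -1.23, -1.15, -0.634 and -0.166 in CON. Of 4 CHF arrays, 3 lay above every CON array and 1 lay among them. The difference was 1.81 ± 0.74 in CHF against CON, with an unadjusted p of 0.0269 and an adjusted p of 0.492 by limma. The highest score was on array 10. Without CHF arrays 10 and 14 the difference was 1.12, and with the sign turned it was 0.27. With the array component described below as a covariate, an alternative added after the data were seen, the difference was 2.09 and the adjusted p 0.0402, the one setting in which a member passed between conditions of the right ventricle. In HYP against CON Pdia4 differed by 0.70 ± 0.67.

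Pdia3, the isomerase that works with the lectin chaperones on glycoproteins, had scores of -0.629, 0.577 and 1.62 in CHF, -0.848, -0.275 and 0.625 in HYP, and -1.19, -0.303 and 1.38 in CON. The groups overlapped. Its difference was 0.66 ± 0.46 in CHF against CON (adjusted p of 0.726 by limma), and -0.40 with the sign turned. Pdia6, a further isomerase, differed in the other direction, by -0.29 ± 0.25 in CHF against CON and -0.38 ± 0.25 in CHF against HYP. Canx, the membrane lectin chaperone of the ER, differed by 0.49 ± 0.68 in CHF against CON, but by -0.995 with the sign turned and -0.56 without CHF arrays 10 and 14. Hyou1, the HSP110-like chaperone of the ER, differed by -0.19 ± 0.27. Ddit3, the CHOP transcription factor that the unfolded protein response induces under lasting stress, had scores of -1.11, -0.769 and 0.392 in CHF, -1.33, -0.328 and 0.406 in HYP, and -0.958, -0.435 and 0.701 in CON. Its difference was -0.37 ± 0.38 in CHF against CON and -0.24 ± 0.38 in HYP against CON, so no rise of Ddit3 was measured in either.

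The ER stress response element, CCAAT and CCACG with 9 bases between them, was found on either strand in the windows of 3 of the 27 matched members (11.1%) and in 0.0657% of all windows. It is shown for 2 members because it is the element through which the unfolded protein response acts on ER chaperones. Capitals mark it in Dnajc3 (chr15:102432526-102432560, plus strand) and in Calr (chr19:40213127-40213161, plus strand, where the element runs on the other strand).
Dnajc3: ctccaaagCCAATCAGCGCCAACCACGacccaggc
Calr: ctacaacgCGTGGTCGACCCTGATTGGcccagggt
Dnajc3, an ER J-domain protein named here after its values were seen, differed by 0.17 ± 0.27 in CHF against CON, and Calr was not measured in the failing right ventricle.

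The cyclophilins, which turn proline bonds in folding proteins, were Ppia, Ppib, Ppif and Ppig, and 0 of 4 passed. Their differences of CHF against CON lay between -0.32 and -0.05, and between -0.46 and 0.58 with the sign turned, where 2 of the 4 were positive. Ppib, the cyclophilin of the ER, differed by -0.32 ± 0.34 and Ppia, the abundant cytosolic form with many near-identical copies in the genome, by -0.05 ± 0.39. The remaining members named by the rule were Dnaja2, a cytosolic J-domain protein, at -0.34 ± 0.33 in CHF against CON, and Dnajb9, an ER J-domain protein, at -0.76 ± 0.52 in HYP against CON.

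Genes around the chaperones were described from lists of co-chaperones with heat shock factors and of the unfolded protein response. Of 11 co-chaperone genes tested, 1 passed in CHF against CON and 0 in the other 2 right ventricle comparisons. The one was Clu, clusterin, a secreted chaperone outside the members. It had a score on few arrays: 6.07 and 7.18 in CHF, 1.98 and 3.07 in HYP, and -0.937, 0.709 and 1.99 in CON. The difference of CHF against CON was 6.04 ± 0.86 (adjusted p of 0.0197 by limma). Both CHF scores come from arrays 10 and 14, so no value is left without them, and with their sign turned the difference was -7.21 (adjusted p of 0.0177). The direction of Clu in CHF is therefore unsettled, and without CON array 20 the adjusted p was 0.0716. Hsf1, the main heat shock factor, had -0.749, 0.551 and 1.89 in CHF, -0.875, -0.868 and -0.271 in HYP, and -1.66, -1.61, -1.23 and -0.916 in CON. Its 3 CHF arrays stood above its 4 CON arrays, and 3.22% of all features had CHF and CON fully apart in either direction. That share pools features with 2 to 6 arrays a group, and groups with fewer arrays separate more often by chance. It therefore cannot show how unusual the separation of Hsf1 is. The difference of 1.92 ± 0.55 had an adjusted p of 0.236 by limma. It was 0.66 with the sign turned, and without CHF array 11 it was 2.58 with an adjusted p of 0.0303. That fit, among those that leave out 1 array, drops the lowest CHF score. It keeps CHF arrays 09 and 14, and the sign of array 14 is unsettled. Of 18 genes of the unfolded protein response, 0 passed in any of the 3, and 7 had a positive difference in CHF against CON. Herpud1, an ER membrane protein induced by that response, differed by -1.40 ± 0.62 (adjusted p of 0.534) and Atf3, a stress transcription factor, by 0.03 ± 0.37.

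A component shared by the arrays carried part of the spread of the members. The first principal component over 1633 other features with a value on all 18 right ventricle arrays held 37.4% of their variance, and CHF arrays 14 and 10 were at its high end. Hsp90ab1 followed it with a Pearson r of 0.941 (Spearman 0.973), Hspa8 with 0.937 over 17 arrays (0.958) and Hspb8 with 0.864 (0.810). Hspa4 ran the other way at -0.835 (-0.837), as did Ppif, the cyclophilin that regulates the mitochondrial permeability pore, at -0.921 (-0.878); Ppif is named here after its values were seen. Without the 2 farthest arrays r was 0.918 for Hsp90ab1, 0.911 for Hspa8, 0.801 for Hspb8, -0.811 for Hspa4 and -0.870 for Ppif. These are descriptions, given without a p because both sides come from the same arrays.

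The share of members that followed the component was near that of other genes. Of the 23 members measured on all 18 arrays, 4 (17.4%) were past 0.8 in either direction, against 16.2% of the 1633 other features. Of 11 cardiomyocyte markers, 4 were above 0.8, with a median r of 0.664, and their part in the chaperone values was not tested. Within single groups of 6 arrays, Hsp90ab1 had an r of 0.985 in CHF, 0.971 in HYP and 0.897 in CON, so its spread along the component was present in each condition.

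**Figure D4:**
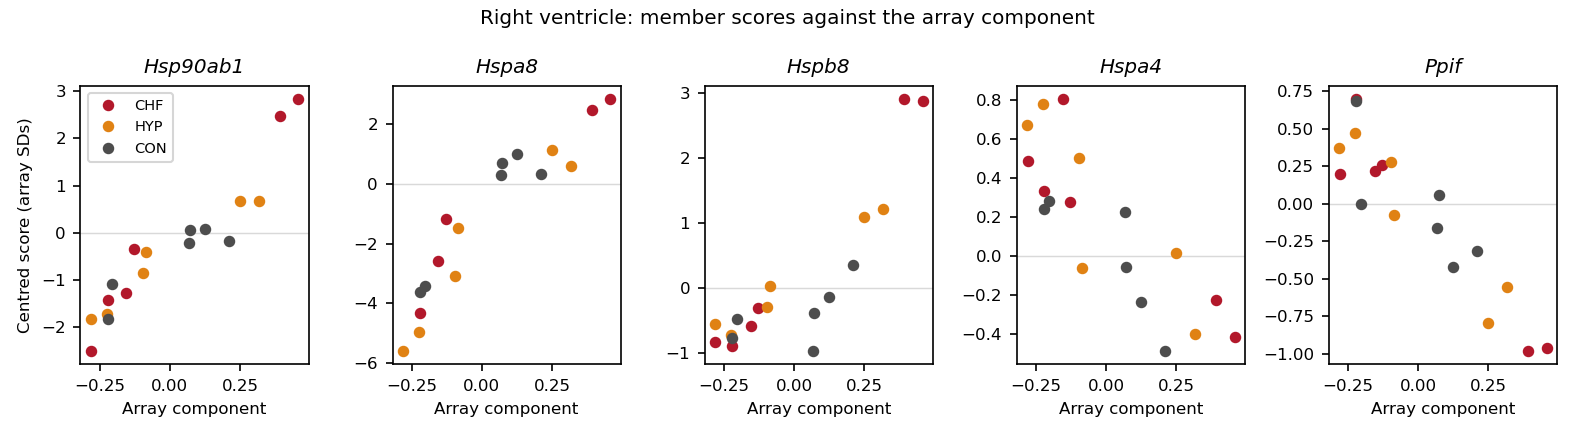
Centred score of 5 members (array SDs) against the array component, which has no unit, on the right ventricle arrays, coloured by condition. Hsp90ab1, Hspa8 and Hspb8 climb along it (r of 0.941, 0.937 and 0.864), Hspa4 and Ppif descend (-0.835 and -0.921), and the 2 CHF points at the far right are arrays 10 and 14.

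Other members deviated together on single arrays. Dnaja1 and Dnajc5 had the highest correlation of deviations of all 465 member pairs, at 0.941, and both were highest on CON array 17. Cryab and Hspb6, both small heat shock proteins of muscle, had 0.888, and 0.878 after the component was removed, and both were lowest on CHF array 12. For Hsp90ab1 and Hspa8 the value was 0.931, and 0.312 after the component was removed.

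Between the ventricles, averaged over the 3 conditions, 5 of 30 members tested passed (16.7%), near the 18.3% of all 2494 features that did. At an unadjusted p below 0.05 there were 12 members, or 40%, against 36.1% of all features. Hspa13 and Hyou1 were higher and Cryab, Hspb6 and Hsp90ab1 lower in the right ventricle. Hspa8 had the largest difference of the 30, at -2.34, and did not pass here, though it did under some alternatives. Of all features, 11.8% passed as higher and 6.54% as lower, against 2 and 3 of the 30 members. Hspb7 lacked values for this fit. With the sign turned on the 5 arrays, 0 members and 0 features passed, so these calls depend on how those arrays are read as a set. They are 1 CHF and both CON left ventricle arrays and CHF right ventricle arrays 10 and 14. All were turned at once, so the setting cannot tell which of them the calls rest on. In that setting Hyou1, Cryab and Hsp90ab1 kept their direction, and Hspa13 and Hspb6 did not.

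Hyou1 had scores of -0.237, 0.51 and 1.25 in the right ventricle (lowest, median and highest of 18 arrays), against -0.127 and -0.23 in CHF, -0.087 and -0.875 in HYP and 0.09 and 0.25 in CON left ventricles. The difference was 0.67 ± 0.21 (adjusted p of 0.0351 by limma), and 0.58 with the sign turned. Hspa13 had -0.795, 0.035 and 0.503 in the right ventricle, against -0.566 and -0.63 in CHF, -0.127 and -0.622 in HYP and -0.49 and -1.04 in CON left ventricles. All 6 left ventricle arrays were below 0, and 7 of 18 right ventricle arrays were. The difference was 0.55 ± 0.17 (adjusted p of 0.0320), and -0.11 with the sign turned.

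Cryab had scores of -4.33, -0.364 and 0.932 in the right ventricle, against 2.1 and 1.51 in CHF, 1.78 and 0.422 in HYP and 1.34 and 0.74 in CON left ventricles. Hspb6 had -2.13, 0.324 and 1.06 in the right ventricle, against 1.51 and 1.14 in CHF, 2.19 and 0.537 in HYP and 1.67 and 0.74 in CON left ventricles. All 6 left ventricle arrays were above 0 for both genes, and the ventricles overlapped. The difference was -1.77 ± 0.53 for Cryab and -1.18 ± 0.36 for Hspb6 (adjusted p of 0.0293 and 0.0302 by limma), and with the sign turned -0.49 and 0.03.

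Hsp90ab1 had scores of -2.51, -0.374 and 2.84 in the right ventricle, against 1.78 and 1.51 in CHF, 0.426 and 1.01 in HYP and 2.26 and 1.92 in CON left ventricles. Only the right ventricle arrays CHF 10 and 14 lay above all left ventricle arrays. The difference was -1.86 ± 0.60 (adjusted p of 0.0366 by limma), and -0.47 with the sign turned. Without CHF left ventricle array 09 or 15 or CON left ventricle array 22 the count of members was 0, without CON left ventricle array 21 it was 1, and without HYP left ventricle array 03 or 05 it was 2. Leaving out single arrays of either ventricle, Hsp90ab1 passed in 12 of 24 fits, Cryab, Hspb6 and Hyou1 in 19 each and Hspa13 in 20.

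**Figure D5:**
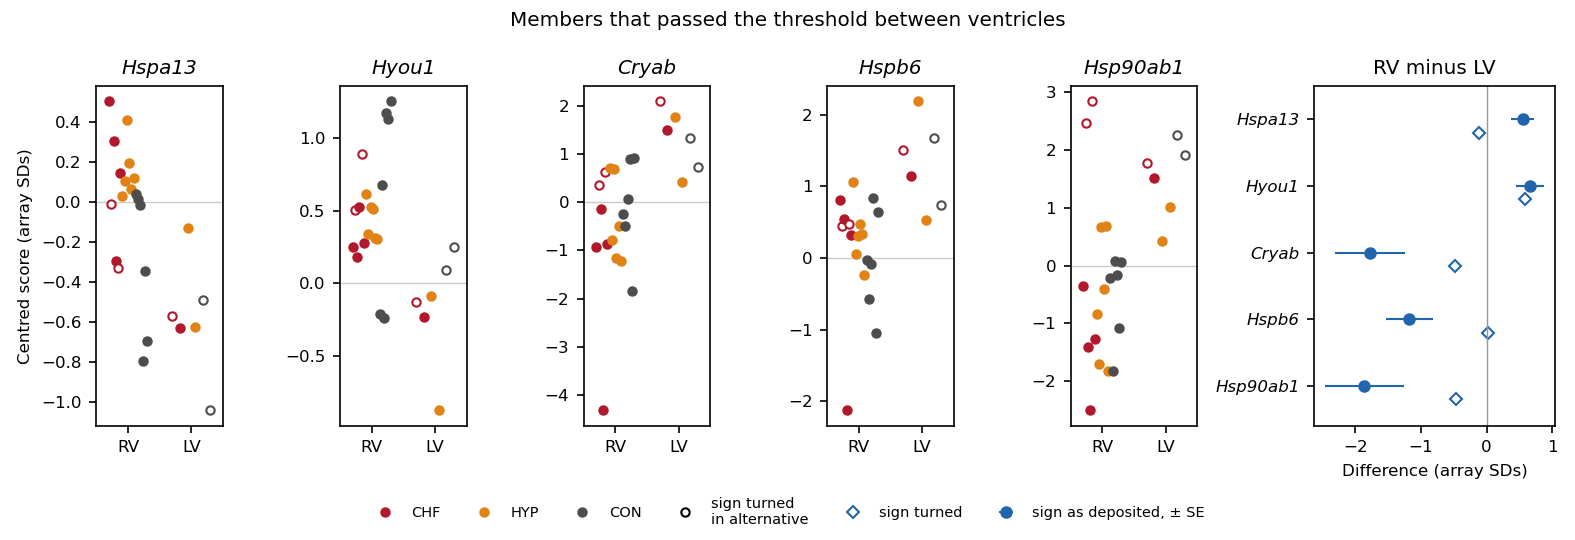
Centred score (array SDs) on the right and left ventricle arrays of the 5 members that passed between ventricles, with open circles for arrays whose sign is turned in the alternative; at the right, the fitted difference with its standard error beside the value with the sign turned (diamonds). The diamonds lie nearer 0 than the filled points, at -0.11 for Hspa13 and 0.03 for Hspb6.

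Marker genes of other cells and of muscle were counted in the same comparison. Of all features, 18.3% passed there, 11.8% as higher and 6.54% as lower in the right ventricle. Of 10 cardiomyocyte markers tested, 2 (Ckm and Myl3) passed as lower in the right ventricle and 0 as higher, and the mean of 9 of them ran from -2.27 to 1.34 over the right ventricle and from 0.747 to 1.39 over the left. Of 3 erythrocyte markers tested, 3 passed as lower in the right ventricle, with a median difference of -5.00, and the mean of 2 of them ran from -6.30 to -0.194 in the right ventricle and from -5.81 to 5.34 in the left. Of 6 fibroblast markers, Lum and Vim passed as higher and Sparc as lower, and of 5 smooth muscle and pericyte markers Acta2 passed as higher. Of the endothelial, atrial and macrophage markers tested, 0 passed. Their part in the chaperone differences was not tested. Among the co-chaperones, Serpinh1, the collagen chaperone of the ER, was higher in the right ventricle by 0.58 ± 0.18, as were St13, an HSP70 partner, and Fkbp1b, which binds the ryanodine receptor, while Grpel1, the exchange factor of the mitochondrial HSP70, was lower, with a difference of -1.44 ± 0.40 (4 of 10 tested, by limma). With the sign turned none of the 4 passed, since 0 features did.

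Between conditions of the left ventricle, with 2 arrays each, 0 of 30 members passed for any pair of CHF, HYP and CON, and the share over all 2494 features was 0% in each. With the sign turned, 96 features and 0 members passed for HYP and CON left ventricles. At an unadjusted p below 0.05 there were 0 members for CHF and CON, where 0.882% of all features were, 0 for HYP and CON (1.84%) and 1 for CHF and HYP (3.01%). The 1 was Hspd1, with 0.11 and 0.35 in CHF against 0.914 and 1.63 in HYP left ventricles, a difference of -1.04 ± 0.46 (adjusted p of 0.958 by limma). Hspe1 had 0.127 and 0.61 in CHF against 1.04 and 1.36 in HYP left ventricles, a difference of -0.83 ± 0.54. For both genes the 2 CHF left ventricle arrays were below the 2 HYP ones, but groups of 2 arrays often separate by chance. The share of all features that did so was not computed. The 2 genes also ran together on the 6 left ventricle arrays (r of 0.939), so they are not 2 independent observations. The effect of CHF or of HYP relative to CON was not shown to differ between the ventricles for any member: 0 of 30 passed in each test by limma, where the share over all features was 0%. At an unadjusted p below 0.05 there were 0 members for CHF, where 2.73% of all features were, and 1 for HYP (Pdia4), where 2.49% were.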

How the data were processed

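The authors deposited 1 score per probe and array, and the file headers name no scale. Each array's scores had a mean of -0.0345 to 0.0713 and an SD of 0.870 to 1.01, so they were taken as standardised ratios to the reference pool. No source used here gives the scanner, background correction or normalization. Of each array, 23.8% to 55.0% of probes had no value, and 3 left ventricle arrays (CHF 15, CON 21 and CON 22) had scores with 2 decimals.

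Of 4803 probes, 4278 had 1 gene symbol, 4 several and 521 none in the platform annotation, and RefSeq changed 0 symbols. Probes of a symbol were averaged, giving 4651 features, and each array was centred on its median. Comparisons used the moderated linear models of limma (version 3.58.1, R 4.3.3), adjusted by Benjamini-Hochberg over all features with values on 2 or more arrays of each group. Right ventricle comparisons used 18 arrays and the others all 24. The fits were checked on simulated data with independent noise, so the check does not cover a component shared by the arrays or a turned sign.

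Members and lists were chosen with earlier results of these data known. Named members were those called, those with the 8 smallest p in each right ventricle comparison or the 6 smallest between ventricles, and a list of central chaperones. Alternatives were no centring, sign turning, array weights, a robust fit, fully measured features, single probes, the 2 groups alone, a replicate block, leaving out arrays and, chosen after seeing the data, an array component as a covariate.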

Additional observations from a re-analysis of the deposited data

Results flagged for a closer look

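Of 79 groups of named members with 4 or more arrays, 6 held an array far from the others by Dixon's criterion, and chance gives about 1 in 20. On CHF right ventricle array 12, Cryab was at -4.33, Hspb6 at -2.13 and Dnaja2 at -1.68, each the lowest of 6. On CON right ventricle array 17, Dnaja1 was at 4.06 and Dnajc5 at 3.25, each the highest of 6. Ppia on CON right ventricle array 21 was at -2.27, the lowest of 6. Calr, the lectin chaperone calreticulin, had too few values for the comparisons. It was at 10.3 on CHF left ventricle array 09 and at 2.69 on HYP right ventricle array 06, both above its highest control score of 2.57. Its only control scores, 1.04 and 2.57, were on right ventricle arrays, so the left ventricle score has no control from its own ventricle. The sign of CHF left ventricle array 09 is unsettled, so that 10.3 may stand for a low score.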

How the results depend on the processing

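Between right ventricle groups, 0 members passed under the alternatives run, leave-one-out fits included, with the exception of 1 member (Pdia4) in CHF against CON with the array component as a covariate, an alternative chosen after seeing the data. Of all features, that covariate gave 47 in CHF against CON, turning the sign gave 9, leaving out CHF arrays 10 and 14 gave 18 and leaving out 1 array gave 16 to 38, against 29 as reported. For HYP and CON, turning the sign gave 1 and leaving out 1 array gave 3 to 9, against 9. For HYP and CON left ventricles, turning the sign gave 96 features and 0 members, against 0. The median difference of the members moved with the sign turned to -0.22 for CHF and CON, -0.25 for CHF and HYP, 0.44 for CHF and CON left ventricles and -0.0353 for right and left ventricles. Left ventricle medians depended on single arrays: leaving out 1 array gave -0.227 to 0.0535 for CHF and CON and -0.0915 to 0.173 for HYP and CON.

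Between ventricles, the 5 members became 0 with the sign turned, 16 with array weights and 10 without CHF right ventricle arrays 10 and 14, and leaving out 1 array gave 0 to 6. With the sign turned Hspa13 was at -0.11 and Hspb6 at 0.0293. Of all features, 457 passed as reported, 0 with the sign turned, 1079 with array weights, 863 of 2447 without arrays 10 and 14 and 925 of 2339 with the replicate block, and leaving out 1 array gave 140 to 683. The cause was not tested. Where a left ventricle array was left out, the lone one of its group was assumed to vary like the other groups. The replicate block, pairing right and left arrays of 1 number, gave 13 of 29 members but not Hspa13 and Hspb6, whose adjusted p by limma became 0.0609 and 0.0561. Hspa8, Hspb8, Canx, Hspa4 and Hspb3 did not pass as reported. They passed with this block, with array weights and without CHF right ventricle arrays 10 and 14. Deviations of same-numbered arrays correlated between -0.200 and 0.305 over 6 pairs. With 2 left ventricle arrays a group, the deviations of 1 mirror those of the other. The sign of CHF 09, CON 21 and CON 22 is also unsettled. These correlations therefore cannot decide whether the numbers pair the samples. The fit as reported took all 24 arrays as separate, and its p-values between ventricles ignore any such pairing. Right ventricle groups share no numbers. The arrays give no signal over background, and with 2 left ventricle arrays a group, differences there have wide errors.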
